A study of Homo sapiens with 16 samples.

Results

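Knockdown of SLIRP and stimulation with the androgen dihydrotestosterone (DHT) were crossed as 2 factors in LNCaP cells. The question here was how far their effects on each mRNA add up. The quantity described is the interaction, which is the DHT response under SLIRP siRNA minus the DHT response under the control siRNA, on the log2 scale. It is 0 where the 2 fold changes simply multiply. It is below 0 where the cells that received both SLIRP siRNA and DHT held less of an mRNA than the product of the folds. All 16 of the 16 libraries of the series enter this difference of differences, and 10684 of the 20531 gene entries had enough counts to be tested.

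LNCaP is an established androgen-sensitive prostate cancer line of luminal type. For 24 h the cells were given 40 nM of siRNA, either a pool directed at SLIRP or a nonsense sequence as control (NS). They were then held in serum-free medium with ethanol vehicle (Veh) or 1 nM DHT for another 24 h. This gave 4 groups of 4 libraries, called NS-Veh and NS-1nM DHT for the control siRNA and, for the knockdown, SLIRP-Veh and SLIRP-1nM DHT. According to the methods each of 2 experiments supplied 2 biological replicates, and the labels do not tie replicate numbers to an experiment. p-values therefore measure the spread between these libraries, in 1 cell line and with 1 siRNA pool.

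As background, DHT binds the androgen receptor, a nuclear receptor that moves to the nucleus and binds response elements built from AGAACA-like sequences near its target genes. Kallikreins such as KLK3 (prostate-specific antigen) are its best known targets in prostate cells, and androgen also drives the growth of LNCaP cells. SLIRP is a small RNA-binding protein of the mitochondria and nucleus that binds the steroid receptor RNA activator and is known as a corepressor of nuclear receptors. Genes of DNA synthesis are switched on together at the start of S phase, largely through the E2F factors.

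The libraries held between 436353 and 1689708 counts, with NS-Veh replicates 1 and 2 the smallest at 512925 and 436353 counts. In both NS groups replicates 1 and 2 lay below replicates 3 and 4 in the scores of proliferation genes given below, so values within each of these subsets stand beside the main results. All 10 luminal prostate markers were detected in these cells, while 2 of 3 basal, 2 of 3 endothelial and 3 of 4 immune markers were at 0 in every library. Only 1 of 5 fibroblast and 1 of 3 neuroendocrine markers were at 0 in every library. The fibroblast marker COL1A1 was at 5.64 to 21.9 CPM and the endothelial marker VWF at 2.37 to 17.4 CPM. The neuroendocrine marker SYP was at 8.07 CPM at most. The summed level of the luminal markers ranged from 4117 to 4826 counts per 1e6 counts (CPM) in the 8 NS libraries and from 2996 to 3689 CPM in the 8 SLIRP siRNA libraries.

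SLIRP itself, listed under its older name C14orf156, was measured at 57.8 to 63.4 CPM in NS-Veh and at 45.1 to 61.4 CPM in NS-1nM DHT. It was at 1.75 to 7.83 CPM in SLIRP-Veh and at 1.41 to 8.04 CPM in SLIRP-1nM DHT, so the siRNA groups did not overlap. The knockdown was of similar size without and with DHT, at -4.02 and -3.76 on the log2 scale, and its interaction of 0.26 (SE 0.56) changed sign under several alternatives. SLIRP lies on chromosome 14 from 78174414 to 78227447 on the plus strand of hg19 and overlaps SNW1 on the other strand. The counting is not stated to use strand.

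No gene had an interaction past the threshold. In edgeR's quasi-likelihood fit, with p-values adjusted by Benjamini-Hochberg, 0 of 10684 genes were called at a false discovery rate (FDR) of 0.01 (0%), and 0 at 0.05. The lowest adjusted p was 0.99993. At an unadjusted p under 0.05 there were 388 genes (3.63%), where 534 would be expected from the number of genes tested. Of these, 233 lay below 0 (2.18%) and 155 above 0 (1.45%). The number at this p depended on the model. With a block of replicate numbers 1 and 2 against 3 and 4 within each siRNA it was 548, again with 534 expected. A count under 534 is therefore not evidence of additivity. DESeq2 also called 0 genes and had 196 at an unadjusted p under 0.05. In simulated data with the depth and spread of these 16 libraries, the same fit called 71 of 100 genes given an interaction of 1 on the log2 scale. It called 98 of 100 given an interaction of 2. All 200 changed genes had mean counts from 30 up and were changed together in the same simulated data. With fewer changed genes the adjustment over all genes is stricter, so these shares do not apply to a gene that departs alone. The simulated libraries were also drawn independently, without the split between replicate subsets, so the shares may differ in the real libraries.

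How tightly additivity was bounded depended on the read count. The 95% interval of the interaction stayed inside 1.5-fold either way for 3934 genes (36.8%) and inside 2-fold for 7892 genes (73.9%). For genes with a mean count of 300 and over, 574 of 580 (99%) were bounded within 1.5-fold, and from 100 to under 300 counts 1876 of 2118 (88.6%) were. From 30 to under 100 counts the share was 34.8% of 4267 genes, and under 30 counts it was 1 gene of 3719. The median standard error was 0.12 in the highest class and 0.42 in the lowest. Only 7 genes had an interval that lay wholly beyond 1.5-fold (0.0655%), and all 7 had mean counts under 30. For most genes with 100 counts or more the interaction was thus bounded within 1.5-fold, whereas for thinly counted genes a departure of that size was not detectable at this depth. DHT was called for few genes (0.777% raised and 0.309% lowered in NS), so this bound mostly describes genes without a called DHT response. Of genes that DHT raised in NS, 34 of 83 (41%) were bounded in this way, and of those it lowered, 28 of 33 (84.8%). Of genes called under SLIRP siRNA, 36 of 68 raised (52.9%) and 37 of 57 lowered (64.9%) were.

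**Figure D1:**
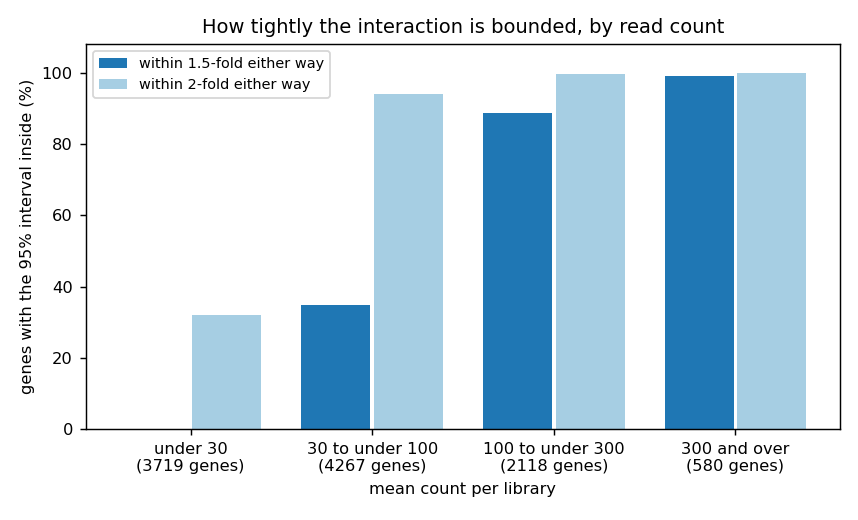
Share of genes whose 95% interval of the interaction lies within 1.5-fold (dark bars) or 2-fold (light bars) of no interaction, by mean count per library. The dark bars rise from near 0 under 30 counts to 34.8%, 88.6% and 99% in the 3 higher classes.

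The genes called for DHT under one siRNA nearly all had the same sign under the other. DHT raised 83 genes in NS (0.777%) and 68 under SLIRP siRNA (0.636%), and 38 were called in both, which is 45.8% of the first list and 55.9% of the second. DHT lowered 33 genes in NS (0.309%) and 57 under SLIRP siRNA (0.534%), with 21 in both, or 63.6% and 36.8%. The DHT responses under the 2 siRNAs share no library. Over the 2698 genes averaging 100 counts or more, the DHT responses had a Pearson's r of 0.73 and the effects of SLIRP siRNA in vehicle and in DHT an r of 0.95. Over all 10684 genes tested the values were 0.41 and 0.83. These describe genes, which are not independent.

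The genes that DHT raised in NS had a median response of 0.87 there and of 0.49 under SLIRP siRNA, and 83 of 83 had the same sign, as did 33 of 33 lowered in NS. Genes raised under SLIRP siRNA had a median of 0.63 there and of 0.52 in NS, where 67 of 68 had the same sign, as did 57 of 57 lowered genes. At an unadjusted p under 0.05 in edgeR, 25 of the 83 lay below 0 in interaction and 1 above, against 2.18% and 1.45% of all genes. For the 33 lowered in NS the counts were 0 and 0. They were 6 and 9 for the 68 raised under SLIRP siRNA, and 12 and 0 for the 57 lowered there. Each list was chosen on one of the responses compared, which favours a larger value on that side. To reduce this, genes were chosen in replicates 3 and 4 of NS and measured in replicates 1 and 2 of all groups. Such a choice still favours genes whose response is in fact larger under the siRNA used to choose them, so the bias is not removed. The 64 genes raised by DHT then had a median response of 0.90 in NS and 0.51 under SLIRP siRNA, with 51 below 0 in interaction. In the other direction, the 37 genes chosen in replicates 1 and 2 of NS had medians of 0.69 in NS and 0.57 under SLIRP siRNA in replicates 3 and 4, with 22 below 0. Of genes raised under SLIRP siRNA, 23 of 41 chosen in replicates 3 and 4 and 18 of 42 chosen in replicates 1 and 2 lay below 0. Of lowered genes, those chosen in NS had 20 of 34 and 15 of 21 below 0, and those chosen under SLIRP siRNA 14 of 29 and 22 of 33. The gene set and the replicates measured change together here, so their parts in these differences cannot be told apart.

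**Figure D2:**
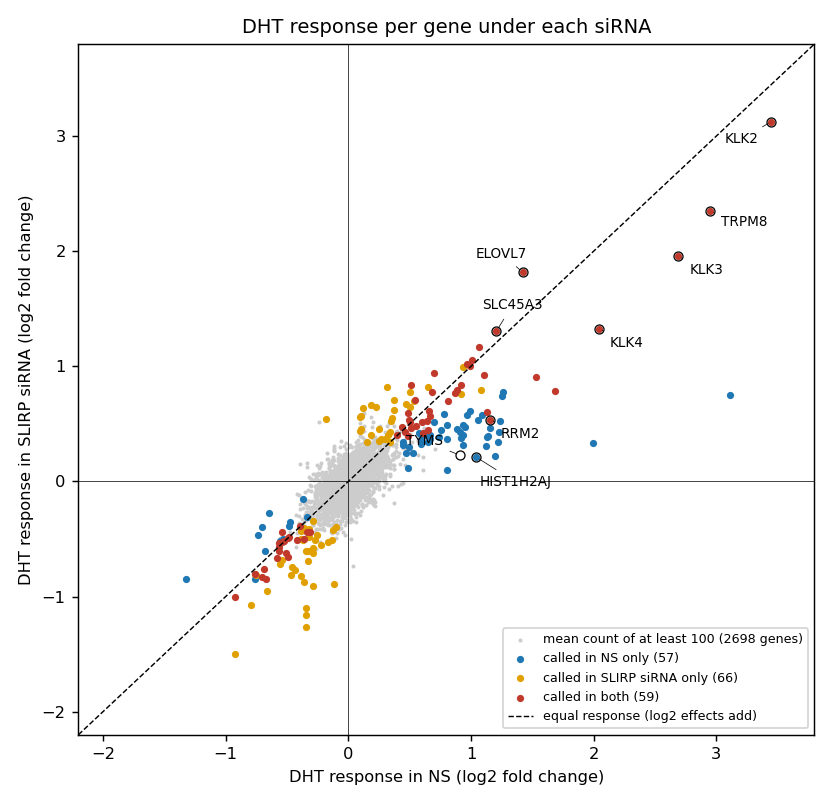
DHT response of each gene in NS (x axis) against that under SLIRP siRNA (y axis), both as log2 fold changes. Grey points are the 2698 genes averaging 100 counts or more, coloured points are genes called at FDR 0.01 (57 in NS only, 66 under SLIRP siRNA only, 59 in both), open circles mark named genes, and the dashed line is an equal response. KLK3, KLK4, RRM2 and HIST1H2AJ lie below the line, while SLC45A3 lies close to it.

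Among the androgen targets, KLK3 departed most from additivity. KLK3, which encodes prostate-specific antigen, was at 30, 25.5, 50.2 and 52.2 CPM in NS-Veh and at 325, 327, 246 and 254 CPM in NS-1nM DHT. It was at 91.7, 98.6, 99.6 and 96.4 CPM in SLIRP-Veh and at 400, 379, 383 and 332 CPM in SLIRP-1nM DHT. Vehicle libraries of the 2 siRNAs did not overlap, and each DHT group lay above both vehicle groups. The DHT response was 2.69 (SE 0.15) in NS and 1.96 (SE 0.12) under SLIRP siRNA, an interaction of -0.74 (SE 0.19, 95% interval -1.13 to -0.34, unadjusted p 0.00045) that did not pass over all genes.

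The departure of KLK3 depends on the scale. Multiplied folds would have given 705 CPM in SLIRP-1nM DHT, and added CPM differences 345 CPM, where 374 ± 29 CPM (SD, n = 4) was measured. On the linear scale the difference of differences was 28.5 CPM (SE 27.3), which is above 0. The KLK3 interaction was -1.49 in replicates 1 and 2 alone and -0.40 in replicates 3 and 4 alone.

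KLK3 lies on chromosome 19 from 51358171 to 51364020 on the plus strand of hg19, with no other annotated gene across it. A stretch of its promoter is shown because KLK3 had the lowest interaction p of the androgen targets and a word of the receptor's response element lies there. The stretch is from RefSeq (GRCh38.p14, chr19:50854733-50854762, plus strand), with the AGAACA word in capitals, which starts 170 bases before the transcription start.
KLK3: tctagtaattgcAGAACAgcaagtgctagc
The word AGAACA or its reverse complement TGTTCT was in the promoter window (250 bases before to 50 after the start, the first one listed per gene) of 4 of 33 androgen-induced targets (12.1%) and of 8.57% of the 8695 tested genes that had a window. The word was also in the window of 13 of 42 replication-dependent histone genes (31%) and 5 of 32 S phase genes (15.6%). For replication genes it was 4 of 41 (9.76%), for G2/M genes 5 of 45 (11.1%), and for all 27305 promoters 14.9%. The word was therefore not particular to the androgen targets. The word match is a description and not evidence of binding.

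KLK4, another kallikrein of the same chromosome region, had a similar shape. It was at 26.0, 18.5, 38.3 and 33.7 CPM in NS-Veh, 149, 155, 97.5 and 133 CPM in NS-1nM DHT, 52.1, 45.4, 44.4 and 39.4 CPM in SLIRP-Veh, and 138, 135, 83.5 and 113 CPM in SLIRP-1nM DHT. In vehicle every SLIRP siRNA library lay above every NS library, a difference of 0.51 that did not pass the test, and the DHT groups of the 2 siRNAs overlapped. Its interaction was -0.72 (SE 0.26, unadjusted p 0.0079), with a DHT response of 2.04 in NS and 1.33 under SLIRP siRNA.

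KLK2, another kallikrein, was thinly counted, at 1.32 to 4.01 CPM in NS-Veh and 4.70 to 8.07 CPM in SLIRP-Veh. It reached 24.4 to 36.7 CPM in NS-1nM DHT and 43.7 to 67.7 CPM in SLIRP-1nM DHT. Its interaction was -0.32 (SE 0.58), with an interval from -1.49 to 0.84, and without NS-Veh replicate 3 it was 0.055. On the linear scale KLK2 lay 21.7 CPM (SE 5.90) above the sum of the differences.

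Other androgen targets lay nearer to additivity on the log2 scale. SLC45A3, a prostate transporter gene, was at 41.8 to 64.0 CPM in NS-Veh, 92.9 to 138 CPM in NS-1nM DHT, 23.7 to 39.4 CPM in SLIRP-Veh and 63.9 to 90.9 CPM in SLIRP-1nM DHT. DHT raised it in both, and no DHT library overlapped the vehicle libraries of its own siRNA. The DHT response was 1.21 in NS and 1.31 under SLIRP siRNA, and the interaction was 0.10 (SE 0.25, interval -0.40 to 0.60). Multiplied folds gave 74.2 CPM and added differences 98.0 CPM, against 77.4 ± 11.1 CPM (SD, n = 4) measured.

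For TMPRSS2, a membrane serine protease, the interaction was 0.24 (SE 0.18), for FKBP5, a chaperone partner of steroid receptors, -0.22 (SE 0.19), and for ELOVL7, a fatty acid elongase, 0.40 (SE 0.27). TRPM8, a cation channel, rose from between 1.98 and 8.01 CPM to between 22.7 and 36.7 CPM in NS, and from between 1.57 and 2.69 CPM to between 9.13 and 16.9 CPM under SLIRP siRNA. Its folds of 2.95 and 2.35 (log2) differed by -0.61 (SE 0.65), and in CPM the difference of differences was -14.3 (SE 3.64). ST6GALNAC1, a sialyltransferase, had 12 to 22 counts in NS-1nM DHT and 0 to 3 counts in each of the other 12 libraries, which was too few for the test.

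Of the whole list of androgen-induced targets, 44 of 55 were tested, 0 were called in interaction, and 29 of 44 lay below 0, where 53.6% of all genes did. The median interaction was -0.09 against -0.02 over all genes, and the median DHT response was 0.50 in NS and 0.46 under SLIRP siRNA. DHT raised 20 of the 44 in NS, against 0.777% of all genes, and 17 under SLIRP siRNA, against 0.636%. The score of the list, which is the mean over its genes of log2 CPM centred per gene, differed between siRNAs in its DHT response by -0.09 (SE 0.08). In replicates 3 and 4 alone the median was 0.02. For the 17 tested androgen-repressed genes the median was -0.05. CXCR7, a chemokine receptor that androgen represses, had DHT responses of -0.12 in NS and -0.37 under SLIRP siRNA and an interaction of -0.24 (SE 0.15). NTS, which encodes the peptide neurotensin, had an interaction of -1.36 (SE 0.73) at a mean count of 8.44.

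**Figure D3:**
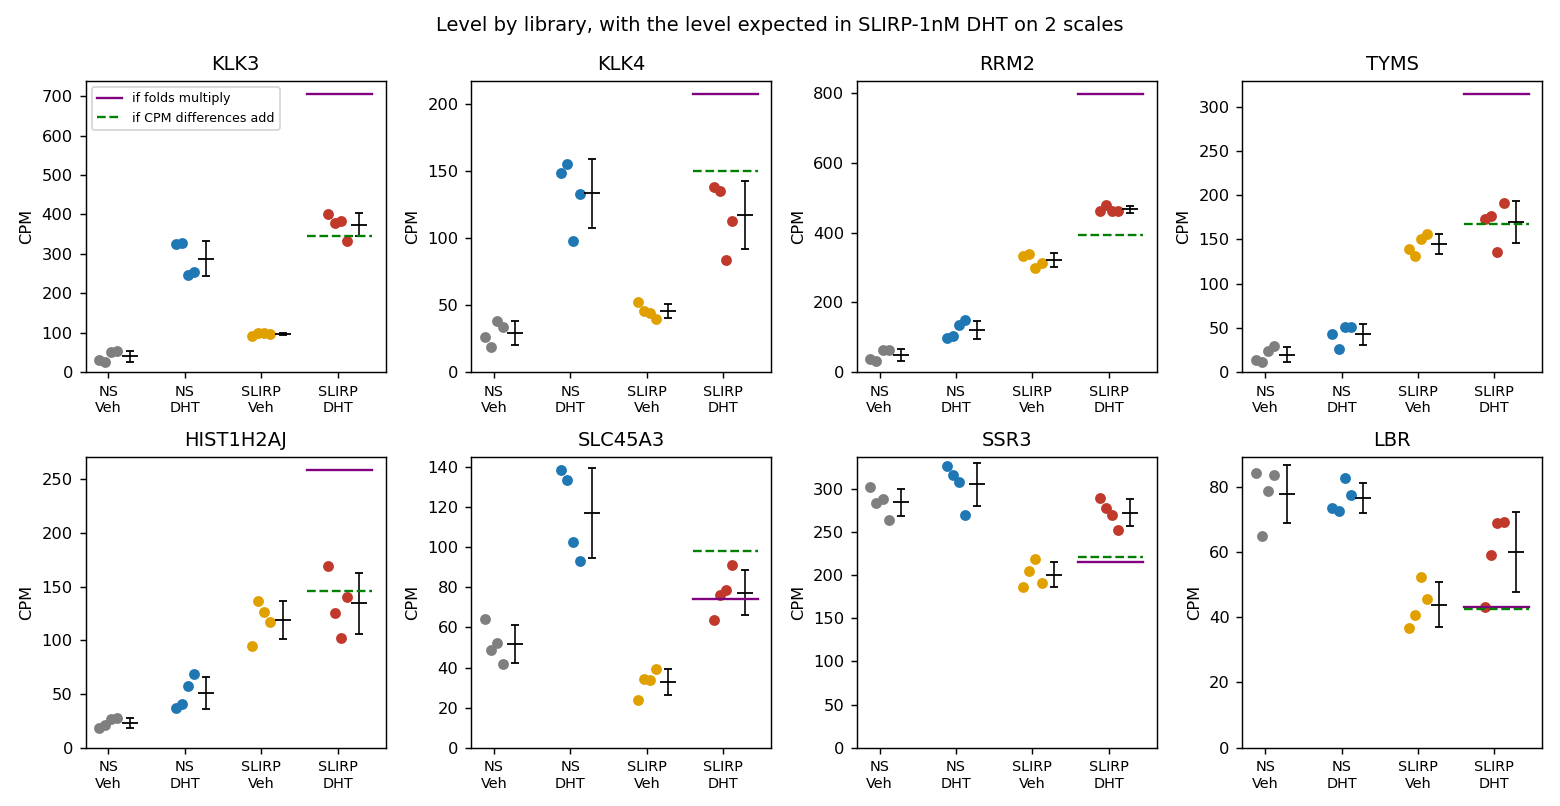
CPM of 8 genes in each library (points) with the mean ± SD of each group of 4 (black), and the level that SLIRP-1nM DHT would have if folds multiplied (solid purple) or if CPM differences added (dashed green). In SLIRP-1nM DHT the means of KLK3, KLK4, RRM2, TYMS and HIST1H2AJ lie nearer to the sum than to the product. SLC45A3 lies near the product, and SSR3 and LBR lie above both.

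Of the lists by function, those of DNA synthesis had the lowest median interactions. SLIRP siRNA in vehicle raised 36 of 43 S phase genes, 29 of 45 replication-dependent histone genes and 38 of 49 genes of the replication origin and fork, against 11.8% of all genes. The median interaction was -0.30 over 43 S phase genes, -0.28 over 45 histone genes and -0.19 over 49 replication genes, which share 22 members with the S phase list. Below 0 lay 32 of 43, 38 of 45 and 41 of 49. At an unadjusted p under 0.05, 6, 7 and 4 of them lay below 0, against 2.18% of all genes, and 0 above, against 1.45%. None was called over all genes. S phase genes had a median DHT response of 0.85 in NS and 0.47 under SLIRP siRNA. DHT raised 10 of the 43 in NS and 3 under SLIRP siRNA, 7 and 1 of the 45 histone genes, and 9 and 3 of the 49 replication genes, against 0.777% and 0.636% of all genes. In bulk samples, smaller rises in the S phase share of cells and in RNA per cell cannot be told apart.

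The scores by library show the order of the groups. The S phase score was -1.20, -1.40, -0.81 and -0.79 in NS-Veh, -0.36, -0.44, -0.13 and -0.10 in NS-1nM DHT, 0.48, 0.55, 0.36 and 0.29 in SLIRP-Veh, and 1.06, 1.00, 0.71 and 0.79 in SLIRP-1nM DHT. No 2 groups overlapped. The DHT response of the score was 0.79 in NS and 0.47 under SLIRP siRNA, a difference of -0.32 with an SE of 0.20. The difference was less than 2 standard errors from 0, but this SE counts the split between the replicate subsets as noise. No SE within the subsets was computed, so the margin cannot decide whether the score departs from additivity. The SEs of the other scores are of the same kind. For the histone genes the score gave -0.42 (SE 0.23).

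NS-Veh replicates 1 and 2, the shallowest libraries, had the lowest S phase and histone scores. Without them the median interaction was -0.22 for S phase genes, -0.13 for histone genes and -0.13 for replication genes. In replicates 1 and 2 alone it was -0.40, -0.48 and -0.26, and in replicates 3 and 4 alone -0.34, -0.31 and -0.32. The 3 medians were below 0 in all 35 alternatives run.

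**Figure D4:**
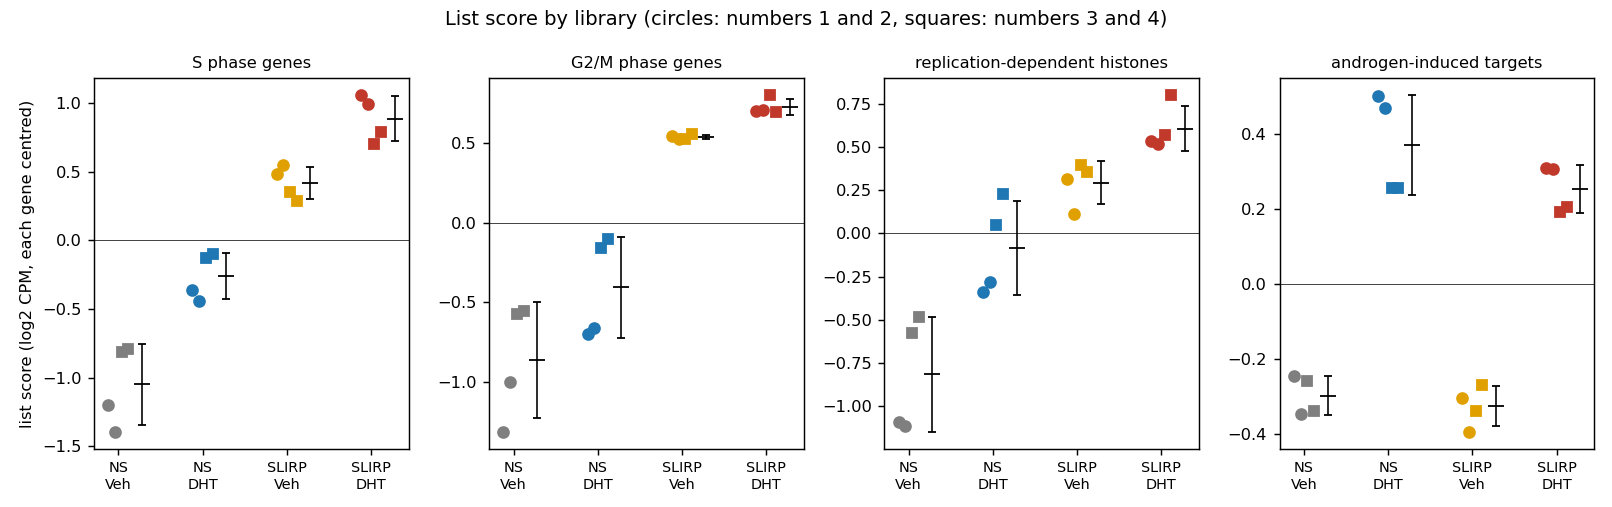
Mean centred log2 CPM of 4 gene lists in each library, with the mean ± SD of each group of 4, for numbers 1 and 2 (circles) and 3 and 4 (squares). The group means of the S phase, G2/M and histone scores rise from NS-Veh through NS-1nM DHT and SLIRP-Veh to SLIRP-1nM DHT, with NS-Veh numbers 1 and 2 lowest, while the androgen-induced score follows DHT under both siRNAs.

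RRM2, the regulated subunit of ribonucleotide reductase, had the lowest unadjusted p of the S phase list. It was at 36.0, 32.4, 64.1 and 62.6 CPM in NS-Veh, 96.5, 104, 134 and 150 CPM in NS-1nM DHT, 334, 340, 297 and 312 CPM in SLIRP-Veh, and 462, 479, 462 and 462 CPM in SLIRP-1nM DHT. The 4 groups did not overlap. DHT raised it by 1.15 (SE 0.15) in NS and by 0.54 (SE 0.10) under SLIRP siRNA, with an interaction of -0.62 (SE 0.19, interval -0.99 to -0.24, unadjusted p 0.0017). Multiplied folds would have given 796 CPM and added differences 393 CPM, and 466 ± 8.82 CPM was measured. RRM2 was thus under the product and 73.2 CPM (SE 18.6) over the sum. The gene spans 10260825 to 10351851 on chromosome 2, plus strand of hg19.

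TYMS, thymidylate synthase, was at 11.6 to 28.9 CPM in NS-Veh, 26.2 to 50.5 CPM in NS-1nM DHT, 144 ± 11.1 CPM (SD, n = 4) in SLIRP-Veh and 136 to 191 CPM in SLIRP-1nM DHT. Under either siRNA the DHT and vehicle groups overlapped. The DHT responses were 0.91 (SE 0.23) in NS and 0.23 (SE 0.13) under SLIRP siRNA, neither past the test, with an interaction of -0.68 (SE 0.26, unadjusted p 0.012). The sum of the differences was 167 CPM, and 169 ± 24 CPM was measured. TYMS overlaps ENOSF1 and TYMSOS on the other strand (chromosome 18, 657653 to 673578 on the plus strand of hg19), and reads of the overlap cannot be told apart.

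HIST1H2AJ and HIST1H2AL, which encode histone H2A, had the lowest unadjusted p of the histone list. HIST1H2AJ was at 18 to 28.1 CPM in NS-Veh, 36.7 to 68.7 CPM in NS-1nM DHT, 94.7 to 136 CPM in SLIRP-Veh and 102 to 170 CPM in SLIRP-1nM DHT, and its interaction was -0.83 (SE 0.27, unadjusted p 0.0033). HIST1H2AL had an interaction of -0.97 (SE 0.34, unadjusted p 0.0062). DHT raised both in NS (1.04 and 1.20), and under SLIRP siRNA the responses of 0.21 and 0.22 did not pass the test. These genes belong to a family of near-identical copies, so reads may be split between them.

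Promoters of these genes are shown because the S phase and histone lists moved together. The words searched on both strands were TTTCCCGC, TTTGGCGC, TTTCGCGC and TTTGCCGC, core forms of the E2F element. They were in the window of 16 of 32 S phase genes (50%), 19 of 41 replication genes (46.3%), 11 of 42 histone genes (26.2%) and 3 of 45 G2/M genes (6.67%), against 500 of 8695 tested genes (5.75%). The window of RRM2 held no such word. The stretches below are from RefSeq (GRCh38.p14), each on its gene's strand, with the E2F word in capitals. The word starts 39 bases before the start in TYMS and 50 bases before it in both histone genes. The positions are chr18:657603-657632 (plus strand) for TYMS, chr6:27814809-27814838 (minus strand) for HIST1H2AJ and chr6:27865256-27865285 (plus strand) for HIST1H2AL.
TYMS: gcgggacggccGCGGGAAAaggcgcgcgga
HIST1H2AJ: cacagcttcctTTTCGCGCccagtagaggc
HIST1H2AL: cacagctttatTTTCGCGCccagtattgac
The matches describe sequence only.

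The G2/M genes had a median interaction of -0.11, with 36 of 54 below 0, where 53.6% of all genes lay. At an unadjusted p under 0.05, 3 lay below 0 and 1 above, against 2.18% and 1.45% of all genes. The G2/M score differed by -0.27 (SE 0.24), and that of the replication genes by -0.29 (SE 0.17), with SEs that also count the split between the replicate subsets as noise. Without NS-Veh replicates 1 and 2 the median was -0.02. KIF23, a mitotic kinesin, had an interaction of -0.93 (SE 0.39), with DHT responses of 1.29 in NS and 0.36 under SLIRP siRNA. MKI67, the proliferation antigen Ki-67, had -0.28 (SE 0.20), and TOP2A, topoisomerase II alpha, had -0.32 (SE 0.25). LBR, the lamin B receptor of the nuclear envelope, lay the other way. It was at 64.9 to 84.1 CPM in NS-Veh and 72.5 to 82.7 CPM in NS-1nM DHT, at 36.7 to 52.5 CPM in SLIRP-Veh and 43.0 to 69.2 CPM in SLIRP-1nM DHT, with an interaction of 0.56 (SE 0.21, unadjusted p 0.012).

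The sum and the product were also compared in genes that both factors moved. DHT in NS and SLIRP siRNA in vehicle both raised 46 genes, and in 38 of them the level in SLIRP-1nM DHT was nearer to the sum of the CPM differences than to the product of the folds. The measured level was 0.70 times the product and 1.02 times the sum at the median, and 44 of the 46 lay below 0 on the log2 scale. Among the 20 genes that both factors lowered, 18 were nearer to the product, at 1.02 times the product and 1.40 times the sum. Where DHT raised and SLIRP siRNA lowered a gene, 8 of 9 were nearer to the product. These genes were chosen by contrasts that share NS-Veh. A low NS-Veh value by chance raises the product more than the sum, so the 46 are biased towards a negative interaction. The other groups were chosen by the same contrasts and are not free of such a bias.

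Over all 6965 genes that averaged 30 counts or more, the level was nearer to the sum in 48.5%. Among list members so counted it was nearer to the sum in 23 of 29 S phase genes, 26 of 34 replication genes, 22 of 30 histone genes and 27 of 40 G2/M genes. It was nearer to the product in 24 of 34 androgen-induced targets and 19 of 23 interferon-stimulated genes. It was also nearer to the sum in 44 of 71 respiratory chain genes, 25 of 39 splicing factor genes and 19 of 34 proteasome genes, so this count is not particular to the proliferation lists. Of the study's own classes of the androgen signature, which were chosen on these libraries, C2 had a median interaction of -0.28 (82 of 92 below 0), C1 -0.15 (32 of 39) and C3 -0.18 (29 of 39). The signature was selected by the DHT response in NS, which favours values below 0, so the classes are not independent evidence of a direction.

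SLIRP siRNA lowered 30 of 42 interferon-stimulated genes in vehicle, against 9.95% of all genes, and 31 of 42 in DHT, against 11.6%. Their median interaction was -0.16 over 42 genes (26 below 0) and 0.00 over those averaging 30 counts or more (-0.0023), so it rested on thinly counted genes. IFI6, an antiviral mitochondrial protein gene, was at 175 to 258 CPM in the 8 NS libraries and 8.76 to 31.0 CPM in the 8 SLIRP siRNA libraries, with an interaction of 0.15 (SE 0.36). The siRNA effect on IFI6 of -3.81 in vehicle and -3.66 in DHT was nearly the same. IFIT2, an antiviral protein with tetratricopeptide repeats, had DHT responses of 0.43 in NS and -0.45 under SLIRP siRNA, neither past the test, and an interaction of -0.88 (SE 0.36, unadjusted p 0.017). LY6E, an interferon-induced surface protein gene, had an interaction of 0.64 (SE 0.29, unadjusted p 0.033).

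A few lists lay slightly above 0. The ER folding and unfolded protein response genes had 24 of 34 above 0 and a median of 0.06, the ATF4 and amino acid stress targets 20 of 29 and 0.09, the cytosolic aminoacyl-tRNA synthetases 14 of 20 and 0.06, and the p53 targets 12 of 19 and 0.14. The medians of these 4 lists were above 0 in all 35 alternatives, by as little as 0.0080, 0.025, 0.00069 and 0.0076. The alternatives reuse the same libraries. Over the 11 p53 targets averaging 30 counts or more the median was 0.0093, with 5 below 0, so the value of 0.14 rested on thinly counted genes. Over members so counted it was 0.05 for ER folding, 0.10 for ATF4 targets and 0.06 for the synthetases.

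SSR3, a subunit of the translocon-associated complex at the ER, was at 263 to 302 CPM in NS-Veh, 269 to 326 CPM in NS-1nM DHT, 186 to 218 CPM in SLIRP-Veh and 252 to 290 CPM in SLIRP-1nM DHT. DHT raised it under SLIRP siRNA by 0.45 (SE 0.09), its response in NS was 0.11 (SE 0.09), and the interaction was 0.35 (SE 0.12, interval 0.09 to 0.60, unadjusted p 0.0087). SPCS3, a signal peptidase subunit, had an interaction of 0.29 (SE 0.15). PSAT1, an enzyme of serine synthesis, was at 230 to 390 CPM in NS-Veh and 37.6 to 74.0 CPM in SLIRP-Veh, and its interaction was 0.23 (SE 0.22). ASNS, asparagine synthetase, had 0.25 (SE 0.15).

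The 2 aminoacyl-tRNA synthetase genes with the lowest p went in opposite directions. FARSA, a subunit of the phenylalanyl enzyme, had an interaction of -0.45 (SE 0.16), and MARS, the methionyl enzyme, of 0.35 (SE 0.15). MARS overlaps DDIT3 and ARHGAP9 on the other strand, so their reads cannot be told apart. In lipid and polyamine metabolism, EBP, a sterol isomerase, had DHT responses of 0.11 in NS and 0.57 under SLIRP siRNA and an interaction of 0.46 (SE 0.20), and SAT1, which acetylates spermidine and spermine, had 0.13 and 0.60 with an interaction of 0.47 (SE 0.21). SLC39A10, a zinc importer, was lowered by SLIRP siRNA and raised by DHT in NS, with an interaction of -0.32 (SE 0.18). None of these passed over all genes.

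The immediate early genes were a small list with a common sign. Of 14 tested AP-1 and immediate early genes, 13 lay below 0, with a median of -0.13 and 0 at an unadjusted p under 0.05. Their score differed by -0.19 (SE 0.07), and in replicates 3 and 4 alone the median was -0.02. IER2, an early response gene, had DHT responses of 0.14 in NS and -0.29 under SLIRP siRNA, with an interaction of -0.43 (SE 0.24).

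Housekeeping lists centred on additivity. The median interaction was 0.00 over 82 cytosolic ribosomal protein genes (0.0013), 0.02 over 75 nuclear-encoded respiratory chain genes, 0.01 over 35 proteasome genes (0.0052), -0.02 over 76 mitochondrial ribosomal protein genes and 0.02 over 39 splicing factor genes. The interval stayed inside 1.5-fold for 36.8% of all genes, for 77 of 82 ribosomal protein genes (93.9%) and for 32 of 39 splicing factor genes (82.1%). It did so for 28 of 35 genes of the androgen receptor and its corepressors and coactivators (80%), whose median was 0.00 (-0.0026). For SLIRP partners and mitochondrial RNA factors the median was 0.01, and 12 of 29 were bounded in this way (41.4%), a share near that of all genes. The remaining lists were those of cholesterol synthesis (0.00, as -0.0014), fatty acid synthesis (0.04), glycolysis and the TCA cycle (-0.02), polyamine metabolism (-0.02), NF-kappaB (0.02), epithelial junctions (-0.01) and zinc transport (-0.06).

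**Figure D5:**
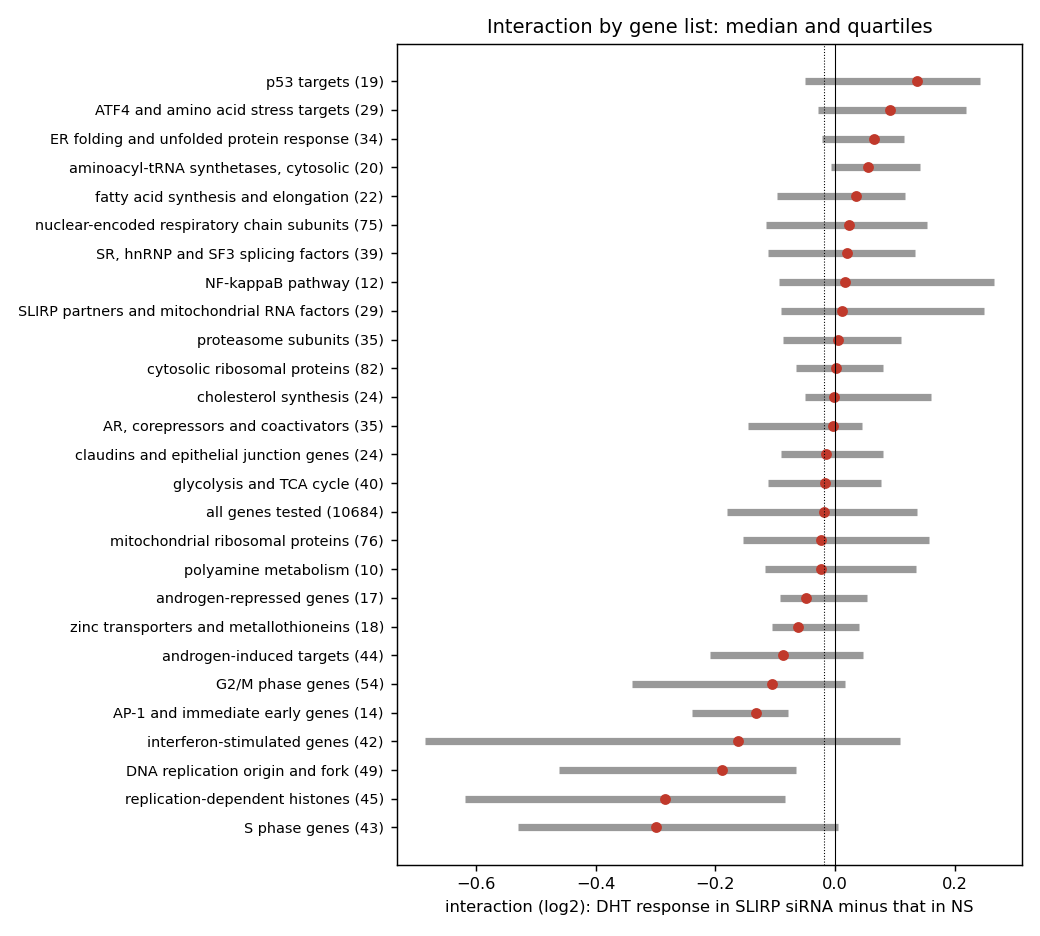
Median interaction (red points) and quartiles (grey bars) of each gene list, without the study's own classes, with the number of tested genes in brackets, on the log2 scale. The dotted line is the median of all 10684 genes at -0.02. The S phase, histone and replication lists lie lowest, at -0.30, -0.28 and -0.19.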

How the data were processed

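RNA of 16 LNCaP cultures was sequenced by the authors as single 50-base reads. Per the labels, hg19, CASAVA and RSEM were used, and versions are not given in the sources used here. The deposited table holds expected counts per gene as whole numbers (the authors' estimated counts), which were used as they stand. A second deposited table holds the authors' normalized values, a score scaled by the upper quartile and rounded, used only in an alternative. Of 20531 entries, 29 carry no symbol and 3626 have 0 counts in every library.

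Genes passing edgeR's expression filter (version 4.0.16, R 4.3.3, TMM factors) were fitted with the 4 group means by quasi-likelihood. The interaction contrast and the 4 single contrasts were adjusted by Benjamini-Hochberg over all genes, with a threshold of 0.01, without a block for replicate number. Standard errors came from the fitted weights and the moderated quasi-dispersion. CPM use TMM library sizes. The level if folds multiply or differences add was computed from group means of CPM. DESeq2 (1.42.0) and limma (3.58.1) were alternatives. The fit was tested on simulated data, where 2 unchanged genes were called. Intervals cover counting error and the spread between libraries.

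The gene lists and tests were chosen with earlier results of these data known. Named genes were 14 chosen ones, the 12 largest in each direction of called genes averaging 30 counts or more (there were none), and the 2 members of each list with the lowest p. Some named genes are not reported here. S and G2/M phase lists are those of Seurat (5.3.0). Blocking numbers 1 and 2 against 3 and 4, leaving out NS-Veh replicates 1 and 2, restricting lists to mean counts of at least 30, and choosing genes in some replicates and measuring them in others were added after seeing the data. Positions are from GENCODE for hg19.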

Additional observations from a re-analysis of the deposited data

Results flagged for a closer look

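In 9 of 152 groups of 4 libraries checked (the named genes and 6 list scores), 1 library lay far from the other 3, where chance flags about 1 in 20. The G2/M score of SLIRP-1nM DHT replicate 3 was 0.80, with the others at 0.70 to 0.71. C14orf156 (SLIRP) was at 63.4 CPM in NS-Veh replicate 3, against 57.8 to 58.0. ELOVL7 was at 39.4 CPM in NS-Veh replicate 2, against 21.1 at most. RRM2 was at 479 CPM in SLIRP-1nM DHT replicate 2, against 462 in each of the others, and MKI67 at 343 CPM in SLIRP-1nM DHT replicate 4, against 376 to 378. HIST1H2AL was at 50.1 CPM in SLIRP-Veh replicate 2, against 38.6 to 40.4, and SAT1 at 67.3 CPM in the same library, against 55.0 to 57.0. IFIT2 was at 66.6 CPM in NS-Veh replicate 4, against 102 at least, and FARSA at 101 CPM in NS-1nM DHT replicate 1, against 114 at least.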

How the results depend on the processing

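The count of genes called in interaction was 0 in 30 alternatives, including RLE, upper-quartile and total-count scaling, DESeq2, limma on the normalized table, FDR 0.05, a filter of 10 counts in every library and without NS-Veh replicates 1 and 2. It was 11 with no filter on low counts (5 above and 6 below 0), 1 in replicates 1 and 2 alone, 3 in replicates 3 and 4 alone, and 0 to 1 on leaving out 1 replicate number or library (EIF3C, called without replicate 2 of all groups or of NS-1nM DHT). Deviations of same-numbered libraries correlated at -0.037 to 0.20, with 7 of 24 over 0.1, so the numbers were not taken to pair them all. Between NS-Veh and NS-1nM DHT they were 0.16, 0.050, 0.14 and 0.20 with 3 of 4 best with their own number, and averaged 0.13 within numbers 1 and 2 or 3 and 4 and -0.13 across. The replicate block called 0 genes in interaction, with 473 at an unadjusted p under 0.05, and raised DHT calls from 83 higher and 33 lower to 157 in NS and from 125 to 184 under SLIRP siRNA (80 in both). A block of numbers 1 and 2 against 3 and 4 within each siRNA gave 239 and 272, and called 0 in interaction at FDR 0.01 and RRM2 at 0.05 (edgeR adjusted p 0.048). KLK3 passed 0.05 with no filter (0.041) and in replicates 1 and 2 alone (0.017).

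Genes bounded within 1.5-fold, 3934 in all and 7892 within 2-fold, numbered 1345 in replicates 1 and 2 alone, 2539 in replicates 3 and 4 alone and 2488 to 3847 with a replicate or library left out. Genes called for DHT under both siRNAs, 59 in all, numbered 94 without a filter, 32 and 34 in those replicate subsets, 26 and 17 by limma with a pseudocount of 1 and 0.1, 119 with the block within siRNAs, 33 without NS-Veh replicates 1 and 2, and 23 to 60 with a replicate or library left out (38 without NS-Veh replicate 4). The median interaction of androgen-induced targets was 0.023 in replicates 3 and 4 alone. That of interferon-stimulated genes was 0.021 with 10 counts in every library, 0.085 in replicates 3 and 4 alone, 0.00 at mean counts of at least 30 (-0.0023), and -0.27 to -0.0099 with a replicate or library left out. For S phase genes it was -0.50 by limma with either pseudocount.

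On the linear CPM scale the sign turned for KLK3 (28.5), KLK2 (21.7), FKBP5 (0.48), SLC45A3 (-20.6), RRM2 (73.2), TYMS (1.98) and MKI67 (19.5), since a sum and a product differ by construction. The log2 interaction of C14orf156 turned to -0.87 in replicates 1 and 2 alone, -0.28 and -0.30 by limma and -0.19 with a prior count of 0.5, and ranged from -0.85 to 0.84 with a replicate or library left out. That of TMPRSS2 was -0.11 in replicates 1 and 2 alone. With a replicate or library left out, KLK2 ranged from -0.86 to 0.23, SLC45A3 from -0.069 to 0.24 and IFI6 from -0.20 to 0.73. The cause was not tested. KLK3 stayed below 0 in all 34 log2 alternatives, from -1.49 to -0.40, and RRM2 from -1.06 to -0.39. At this depth an interaction under 1.5-fold was not detectable for most genes with mean counts under 100.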

Other observations

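Several genes with a low interaction p belonged to families of near-identical copies that went in opposite directions. GTF2IP1, a pseudogene of the transcription factor gene GTF2I, had an interaction of -0.77 (unadjusted p 0.00064) and GTF2I one of 0.29 (unadjusted p 0.022), and with their counts summed the interaction was -0.10 (SE 0.10). GTF2H2, a TFIIH subunit gene, had 0.75 and its copy GTF2H2B -1.39, and the sum over 3 copies had 0.06 (SE 0.11). GTF2IRD2 had -2.58 and GTF2IRD2B 1.47, with 0.12 (SE 0.29) for their sum. GPR89B had -3.72 and GPR89C 1.90, with 0.11 (SE 0.23) for the sum over 3 copies. EIF3C, a translation initiation factor gene, was at 0 in all 4 SLIRP-Veh libraries and in several libraries of the other groups, its copy EIF3CL had a mean count of 296, and their sum had -0.08 (SE 0.14). Sums further from 0 were those of 2 other families. FAM72A had -1.93, and the sum over 3 copies had -0.34 (SE 0.31). SNHG3-RCC1 had 0.73, and its sum with SNHG3 and RCC1 had 0.34 (SE 0.18). These genes were chosen after their values were seen.

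SNX29, a sorting nexin gene, had the lowest p of all tested genes (unadjusted 0.00012). Its DHT response was 0.70 in NS and -0.62 under SLIRP siRNA, neither past the test, with an interaction of -1.32 (SE 0.31) at a mean count of 26.9. Of the 388 genes at an unadjusted p under 0.05, the DHT responses under the 2 siRNAs had opposite signs in 283, the same sign and a smaller size under SLIRP siRNA in 44, and the same sign and a larger size in 61. The 388 were chosen on the difference between these 2 responses, which favours opposite signs. The counts are thus no evidence of how the responses differ.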
